A study of Mus musculus with 15 samples.

Results

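Material captured as foam cells from the aortic sinus of ApoE-/- mice carried ventricular heart muscle transcripts in very unequal amounts. The 15 arrays of the study were split by that signal. The classes were chosen by the measured level of Myl2, the regulatory light chain of ventricular myosin, on its brightest probe set: arrays at or above 10 on the log2(intensity + 16) scale were called high and arrays below 10 low. By this rule 8 of the 15 arrays were high and 7 were low. Myl2 levels on the high arrays ran from 10.10 to 14.26 and on the low arrays from 5.56 to 9.33, so the pair of arrays on either side of the limit, 2w-WD replicate 3 at 10.10 and 14w-WD replicate 3 at 9.33, differed by 0.76. The widest step between neighbouring arrays, 1.74, lay within the low class, between 14w-WD replicates 3 and 1, so the levels form a gradient that the limit divides at no natural gap. These values chose the classes, so Myl2 itself is left out of every result that follows.

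The mice were of the C57BL/6 strain and all lacked apolipoprotein E, so they developed lesions on any diet. The 5 CHOW samples came from mice on regular chow for 22 weeks. The 5 samples labelled 2w-WD came from mice that changed to a western-type diet for their last 2 weeks; the sample labels put 20 weeks of chow before it, while the series text places it in weeks 22 to 24. The 5 samples labelled 14w-WD had the western-type diet for 14 weeks, from week 8 to week 22. The labels call the captured material both macrophages and foam cells and name no animal for an array. The spread behind each p-value is therefore that between samples of unknown origin, and part of it may be technical. The high class held 4 CHOW, 3 2w-WD and 1 14w-WD arrays, and the low class 1, 2 and 4 (Fisher's exact test, two-sided, p = 0.301). Because the classes are uneven over the diets, the diet group was a term in every comparison of high with low arrays.

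The aortic sinus is the bulged root of the aorta, seated on the outflow of the left ventricle and wrapped by the atria, so sections through it hold heart muscle beside the arterial wall. Heart muscle of the chambers differs in its myosin light chains: ventricular muscle uses Myl2 and the essential light chain Myl3, while atrial muscle uses Myl7 and the essential light chain Myl4. The main myosin motor of the adult mouse heart, Myh6, and most other proteins of the contractile unit are shared by both chambers. In a bulk sample of this kind, fewer cells of a type and less RNA per cell cannot be told apart.

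The promoters of a ventricular and of an atrial light chain gene are shown because the results turn on the contrast between these genes. Both stretches are RefSeq sequence of assembly GRCm38.p6, 300 bases each, running from 250 bases before the start of the gene to 50 bases after it. The Myl3 stretch is chr9:110763428-110763727 on the plus strand and the Myl7 stretch is chr11:5898733-5899032 on the minus strand. Capitals mark matches to the MCAT motif (CATTCCT), a site of TEAD factors, and to the CArG motif, a site of serum response factor.
Myl3: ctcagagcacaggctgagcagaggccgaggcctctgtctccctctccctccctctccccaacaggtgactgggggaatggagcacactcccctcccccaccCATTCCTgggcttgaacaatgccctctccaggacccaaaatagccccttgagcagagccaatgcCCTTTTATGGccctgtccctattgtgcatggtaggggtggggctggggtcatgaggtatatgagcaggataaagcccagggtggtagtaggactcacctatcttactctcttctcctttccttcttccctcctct
Myl7: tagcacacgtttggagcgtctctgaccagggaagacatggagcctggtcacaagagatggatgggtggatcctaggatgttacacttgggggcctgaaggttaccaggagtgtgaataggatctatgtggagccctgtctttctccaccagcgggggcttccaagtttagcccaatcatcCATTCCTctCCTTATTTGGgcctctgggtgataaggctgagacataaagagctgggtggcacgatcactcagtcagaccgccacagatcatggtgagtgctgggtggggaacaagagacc
Both strands were searched for MCAT, CArG, the GATA motif AGATAA and the MEF2 motif. Each of these promoters held 1 MCAT match and 1 CArG match on the strand of the gene, 149 and 85 bases before the start in Myl3 and 70 and 61 bases before it in Myl7, and no match overlapped another. Neither held AGATAA or a MEF2 match in this window. Other forms of the GATA site were not searched for, and the Myl7 stretch holds the related letters TGATAA. Of 32851 mouse promoters of the same length, 5.36% held MCAT, 1.63% CArG, 11.2% the GATA motif and 3.19% MEF2. Among the lists, MCAT was found in 1 of 9 ventricular promoters (Myl3), 1 of 9 atrial promoters (Myl7), 4 of 19 contractile promoters and 0 of 22 macrophage promoters. CArG was found in 2, 1, 3 and 1 of them. These matches describe letters in a window and say nothing of binding.

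Of 18193 genes with a probe set, 11924 were bright enough to be tested, which meant a mean log2 level of at least 5.66. An intensity of 1, the value that 991 to 1238 probe sets of each array share exactly, corresponds to 4.09 on this scale. Overall brightness was similar in both classes: between 19.8% and 25.7% of probe sets exceeded an intensity of 100 on the high arrays and between 18.2% and 27.2% on the low arrays. With limma and Benjamini-Hochberg adjustment over all 11924 genes, 1 gene was higher on high arrays at an adjusted p under 0.05, which is 0.00839% of those tested, and 0 genes (0%) were lower. That gene was Myl3. Unadjusted p-values under 0.05 were found for 414 genes in the higher direction (3.47%) and 130 in the lower direction (1.09%). Over all genes tested the median difference was 0.06 log2 units in favour of the high arrays, with 58.8% of genes above 0. Since a measured transcript set the classes, p-values describe how closely a gene goes with the split, not the effect of an intervention. Heart muscle genes share their source with Myl2, so their p-values are not printed. They enter only the counts of genes called and the ranking by unadjusted p, and a call there is no independent evidence. Of the tested genes 256 reached the tested level on the high arrays only.

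Myl3 lay at 10.29 to 13.51 on the high arrays, with a median of 12.41, and at 7.95 to 9.52 on the low arrays, with a median of 8.65. The classes did not overlap, and every low array was at least 0.77 below the lowest high array. At equal diet the difference was 3.99 log2 units (SE 0.54), and it was 3.48 within CHOW, 3.96 within 2w-WD and 4.55 within 14w-WD. Only 1 other tested gene, Mmp11, a matrix metalloproteinase also called stromelysin 3, was higher on all 8 high arrays than on all 7 low arrays (2 genes, 0.0168% of those tested), with 6.45 to 7.07 against 5.41 to 6.41. Only Olfr140, annotated as an olfactory receptor, was lower on all high arrays (1 gene, 0.00839%), at 5.520 to 5.886 against 5.893 to 6.383, close to the level needed for testing. The call of Myl3 depended on single arrays: no gene passed without CHOW replicate 4, without 2w-WD replicate 1, 2, 4 or 5, or without 14w-WD replicate 2. Leaving out 2w-WD replicate 3 gave 3 genes, Asb14, Myh7 and Myl3. Across all these omissions the fitted Myl3 difference stayed between 3.75 and 4.33.

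**Figure D1:**
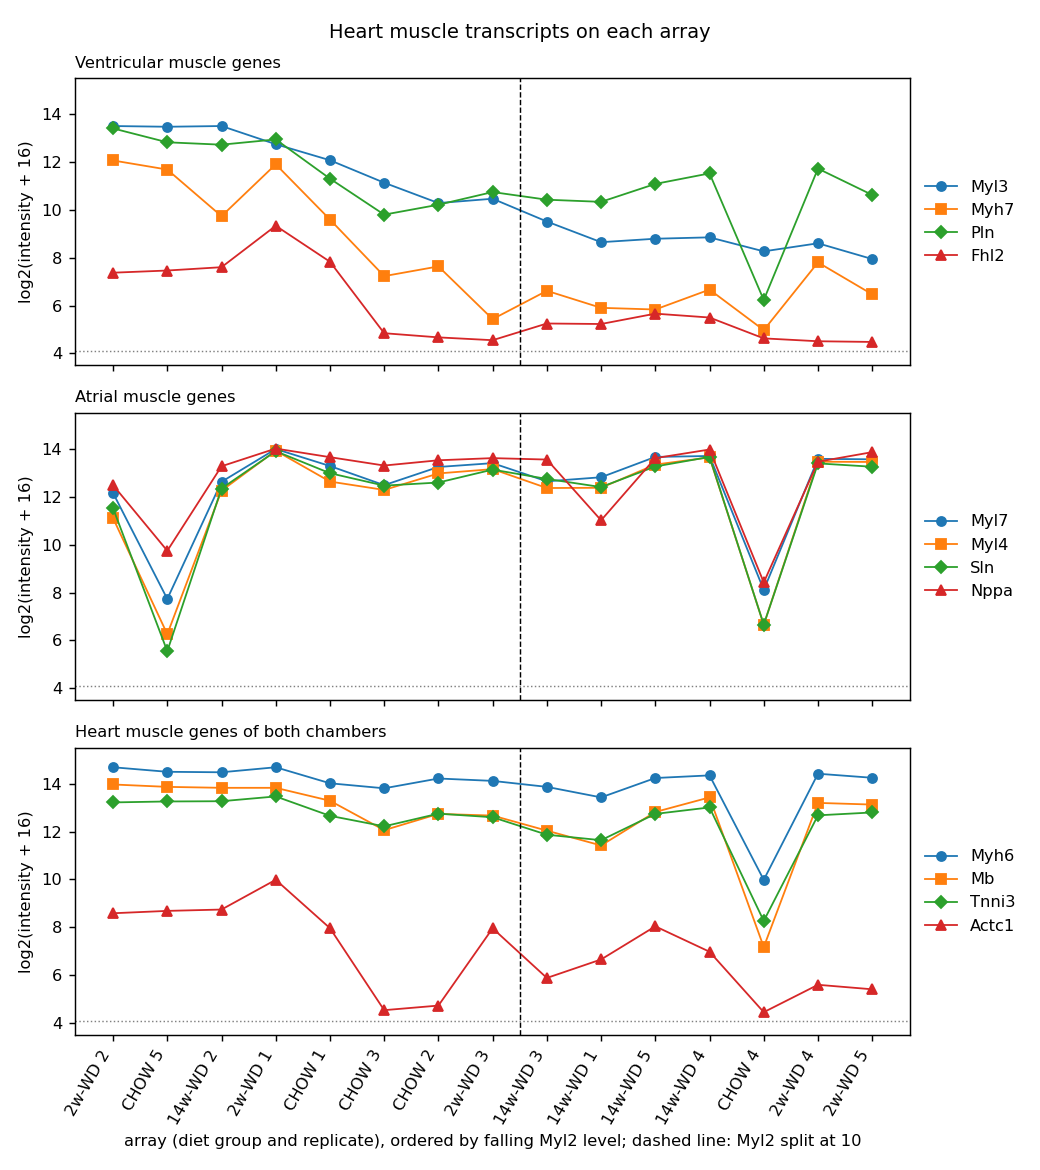
Levels of 4 ventricular, 4 atrial and 4 shared heart muscle genes on each of the 15 arrays, as log2(intensity + 16), with arrays in order of falling Myl2 and the split at 10 as a dashed line. The dotted line marks an intensity of 1 and the joining lines only guide the eye; Myl3 falls from 13.51 to 7.95 across the arrays, while Myl7 is low on CHOW replicates 5 and 4 alone, at 7.73 and 8.11.

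The other ventricular muscle genes were divided. Of the 9 measured besides Myl3, 6 lay above 0, with a median difference of 0.41 log2 units when no filter on low values was used. The 7 that passed the filter had a median of 0.95, but 2 of them, Irx5 and Fhl2, reached the tested level on the high arrays only, so that median is no support. Myh7, the slow myosin heavy chain of ventricular muscle and of slow skeletal fibres, had 5.44 to 12.07 on the high arrays (median 9.67) and 4.98 to 7.81 on the low arrays (median 6.47). Its classes overlapped, because 2w-WD replicate 3, the array just above the limit, lay at 5.44, below 6 of the 7 low arrays. The fitted Myh7 difference was 3.30 (SE 1.00). Pln, the inhibitor of the calcium pump of the sarcoplasmic reticulum, had 9.81 to 13.41 against 6.24 to 11.73, a difference of 2.42 (SE 0.64) that became 1.47 without CHOW replicate 4. Fhl2, a LIM domain protein abundant in heart muscle, reached 7.38 to 9.34 on the 5 arrays with the most Myl2 and stayed between 4.48 and 5.67 on the other 10. Kcnip2, a subunit of the transient outward potassium channel, differed by 0.95 (SE 0.41).

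The transcription factors that mark ventricular identity gave smaller differences. Irx4, a ventricular homeobox factor, and Mpped2 were below the tested level, with a highest level of 5.60 in either gene. Irx3 differed by 0.41 (SE 0.31), Irx5 by -0.09 (SE 0.18) and Hey2, a repressor of atrial genes in the ventricle, by -0.34 (SE 0.21). Hey2 reached the tested level on the low arrays only, with means of 5.54 on high and 5.98 on low arrays, so its negative value is no support. The name ventricular therefore rests here mainly on the light chain and the slow heavy chain, with Pln beside them. The separate list of calcium handling and excitation genes was not used to tell the chambers apart. Slow skeletal muscle also uses Myl2, Myl3 and Myh7, and fast skeletal genes were looked at beside them. Fast skeletal genes mark fast fibres, so they cannot tell slow skeletal from ventricular muscle. Of 10 such genes 9 were below the tested level, and only Pvalb, the fast fibre calcium buffer, was tested, at 6.09 to 7.51 on high and 5.53 to 6.97 on low arrays. Of those below it, Mybpc2, the fast form of myosin-binding protein C, reached 8.25 on a high and 6.96 on a low array, with a median of 4.96 over the 15 arrays, and Myh4, a fast myosin heavy chain, reached 6.25 and 5.58.

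The most abundant atrial muscle genes were high on nearly every array and did not divide by the split. Myl7 lay between 12.16 and 14.00 on 13 of the 15 arrays, and at 7.73 on CHOW replicate 5 and 8.11 on CHOW replicate 4. The same pair of arrays was lowest for Myl4, at 6.26 and 6.66, and for Sln, the atrial inhibitor of the calcium pump, at 5.55 and 6.66. Nppa, the atrial natriuretic peptide, was 9.75 on CHOW replicate 5 and 8.42 on CHOW replicate 4, and 11.02 to 14.02 elsewhere. These arrays stood on opposite sides of the split, since CHOW replicate 5 had a Myl3 level of 13.48 and CHOW replicate 4 one of 8.27. CHOW replicate 5 thus carried ventricular without much atrial transcript, and CHOW replicate 4 was low in heart muscle of either kind, with Myh6 at 9.98 and myoglobin (Mb) at 7.17, the lowest of the 15 arrays for both genes.

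Of 10 atrial genes 7 were tested, while Gja5, a gap junction protein, Bmp10, a growth factor of atrial muscle, and Mybphl were below the tested level, with highest levels of 5.75, 4.70 and 7.22. Of the 7, 6 lay above 0 and the median difference was 0.69, against 0.22 over all 10 without the filter. CHOW replicate 4, the only low array on chow, decided this value: without it the median was -0.47, and without CHOW replicate 5 it was 1.00. Within CHOW the list median was 3.58, against -0.29 within 2w-WD and -0.67 within 14w-WD; the difference between diets was not tested. The fitted differences were 0.69 (SE 0.86) for Myl7, 0.75 (SE 1.07) for Myl4, 0.82 (SE 1.11) for Sln and 1.13 (SE 0.79) for Nppa, so none exceeded 1.5 times its standard error. Without CHOW replicate 4 the Myl7 value was -0.47 and the Nppa value -0.08.

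**Figure D2:**
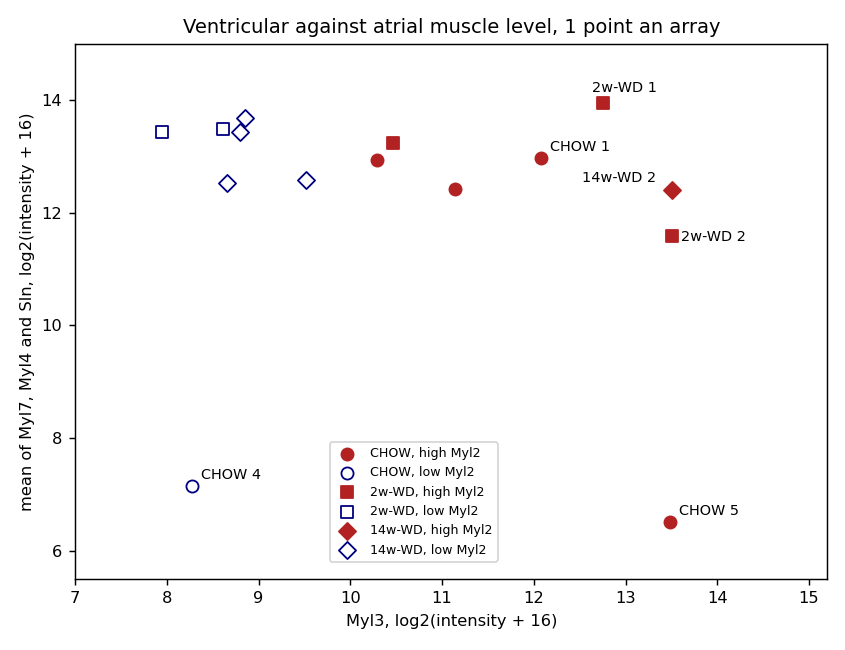
Myl3 level of each array against the mean level of the atrial genes Myl7, Myl4 and Sln, both as log2(intensity + 16), with the diet group as the shape and the Myl2 class as filled (high) or open (low) points. Of the 15 arrays 13 lie at atrial levels above 11 whatever their Myl3 level, and CHOW replicates 5 and 4 lie below 8 at opposite ends of the Myl3 axis.

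Contractile genes shared by both chambers all had positive differences: 23 of 23 tested lay above 0 and the median was 1.40. This median was 1.79 within CHOW, 0.71 within 2w-WD and 1.12 within 14w-WD, and 0.80 without CHOW replicate 4. Cmya5, a member, reached the tested level on the high arrays only. Without the filter 24 of 24 measured genes lay above 0, with a median of 1.35. Actc1, the cardiac actin, had 4.53 to 9.99 on high and 4.45 to 8.04 on low arrays, a difference of 2.54 (SE 0.68) with 2.03, 3.34 and 1.85 within CHOW, 2w-WD and 14w-WD. Myom1, which ties myosin filaments together at the M line, had 10.40 to 12.65 against 8.81 to 11.60, a difference of 1.48 (SE 0.40). For some of these genes the difference came mainly from CHOW replicate 4. Myh6 lay at 13.81 to 14.69 on the high arrays and at 13.43 to 14.42 on the low arrays other than CHOW replicate 4, and its difference of 1.40 became 0.30 without that array. Tnni3, the cardiac troponin inhibitor, and Myoz2, a Z disc protein, behaved alike, with 4.46 and 6.10 within CHOW but 0.36 and 0.62 within 2w-WD and 0.96 and 0.93 within 14w-WD.

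Genes of calcium handling and excitation had a median difference of 0.84, with 11 of 14 tested members above 0. Hrc, the histidine-rich calcium-binding protein of the sarcoplasmic reticulum, had 8.13 to 11.79 on high and 4.44 to 10.16 on low arrays, a difference of 2.92 (SE 0.81). Jph2, which couples the surface membrane to the calcium store, differed by 1.40 (SE 0.45), and its value was similar in each diet, at 1.35, 1.58 and 1.17. Atp2a2, the calcium pump that Pln inhibits, differed by 0.82 in all but by 0.24 within 2w-WD and 0.47 within 14w-WD. Slc8a1, the sodium-calcium exchanger of heart muscle, went the other way, at -0.51 (interval -0.99 to -0.04). Gja1, the main gap junction protein of working heart muscle and also of other cells, lay at 11.62 to 12.88 on high and 11.64 to 12.72 on low arrays, a difference of 0.03 (SE 0.23).

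Genes that supply energy to muscle gave a median of 1.02, with 23 of 24 tested members above 0 and within-diet medians of 1.17, 0.61 and 0.81. Ckmt2, the mitochondrial creatine kinase of striated muscle, had 7.08 to 12.20 against 4.87 to 10.53, a difference of 2.93 (SE 0.85). The heart and muscle forms of cytochrome oxidase subunits, Cox7a1, Cox8b and Cox6a2, differed by 2.13, 1.96 and 1.48, which became 1.14, 0.96 and 0.55 without CHOW replicate 4. Within 2w-WD their differences were 0.63, 0.51 and 0.35, against 4.60, 4.47 and 3.80 within CHOW. Mb, the oxygen store of muscle, differed by 2.20, and by 0.76 without that array. Ckm, the cytosolic muscle creatine kinase, lay at 5.87 to 6.78 on high and 6.08 to 6.61 on low arrays, a difference of 0.06 (SE 0.19).

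Subunits of the respiratory chain and ATP synthase, which every cell with mitochondria uses, had smaller and steadier differences. Of 28 tested subunits 27 lay above 0, with a median of 0.49 and within-diet medians of 0.37, 0.60 and 0.41. Unadjusted p-values under 0.05 were found for 14 of the 28 in the higher direction and for 0 in the lower direction, beside 3.47% and 1.09% of all genes, and no subunit passed after adjustment. Ndufb9, a subunit of complex I, had 12.83 to 14.02 on high and 12.75 to 13.42 on low arrays, a difference of 0.58 (SE 0.15) with 0.60, 0.57 and 0.57 within the diets. Ndufv3, another subunit of complex I, lay at 13.32 to 13.91 against 13.00 to 13.47, so only a narrow band was shared. Its difference was 0.45 (SE 0.10, limma adjusted p = 0.825). Uqcrb, of complex III, was level at -0.02 (SE 0.24).

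Cardiac transcription factors had a median of 0.28 with 10 of 11 above 0, and Gata6 had 5.89 to 7.11 against 5.64 to 6.44, a difference of 0.60 (SE 0.21). Nkx2-5, a factor that defines heart muscle, was below the tested level and its highest level on any array was 4.66. Gata4 differed by 0.42 (SE 0.30), Tbx5 by 0.68 (SE 0.58) and Mef2c by 0.03 (SE 0.33). Of 6 tested genes that heart muscle raises under load, 4 lay above 0, with a median of 0.69. Myh7, Nppa and Ankrd1, which also belong to other lists here, differed by 3.30, 1.13 and 0.75. Nppb, the ventricular natriuretic peptide, differed by 0.63 (SE 0.44) and Timp1, a matrix protease inhibitor, by -0.47 (SE 0.23).

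**Figure D3:**
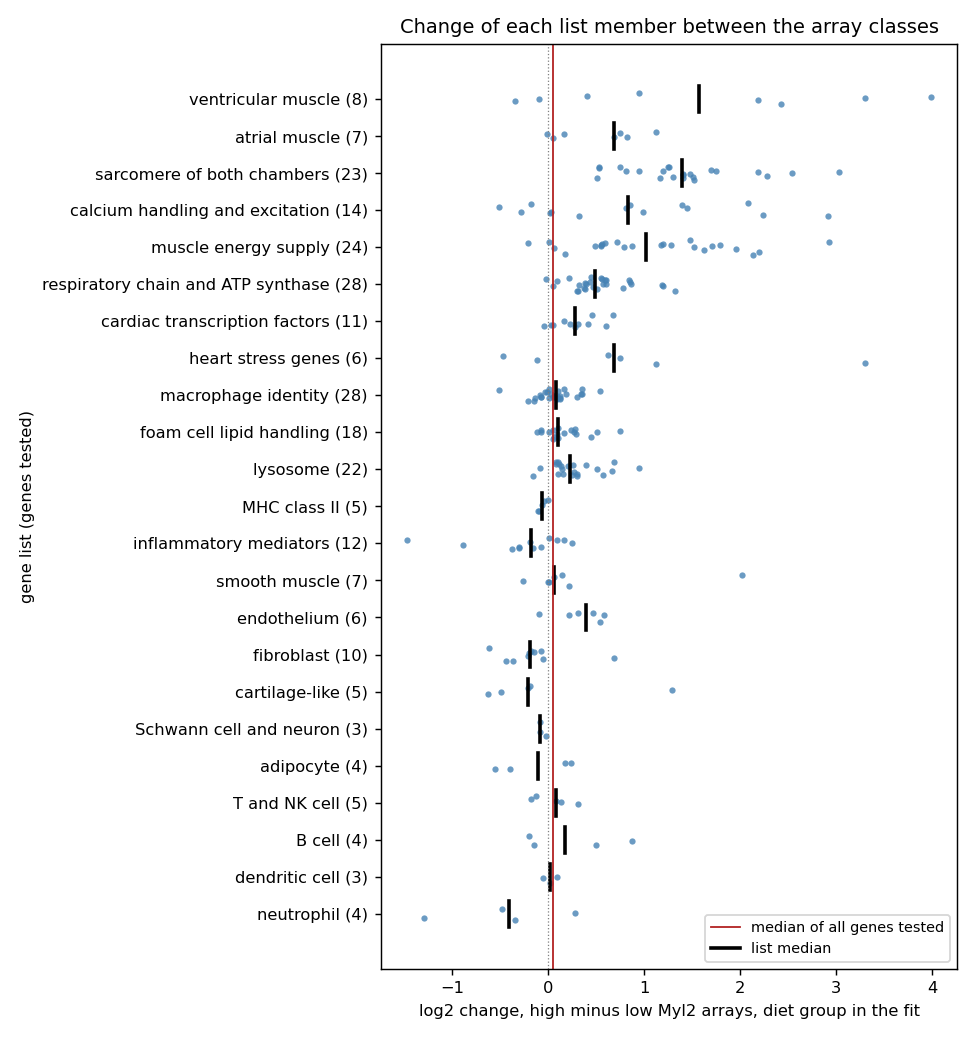
Log2 difference between high and low Myl2 arrays, with the diet group in the fit, for each tested member (points) of 23 gene lists, the list median (black bar) and the median of all 11924 genes tested (red line, 0.06). The ventricular list includes Myl3. The contractile genes of both chambers all lie above 0 with a median of 1.40, and macrophage identity genes lie between -0.52 and 0.54 with a median of 0.08.

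Beyond the lists, the genes with the smallest unadjusted p in the higher direction after Myl3 were Poln, Tbrg4, Mcrip2, Ndufv3, Asb14, Tesc, Sh3bgr and Plin5, and 1 gene known by a clone name. None of them passed after adjustment. Plin5, the lipid droplet coat protein of oxidative tissue such as heart, had 9.75 to 13.19 on high and 5.22 to 12.05 on low arrays. Its difference of 2.93 (SE 0.76) was 6.18 within CHOW, where CHOW replicate 4 is the only low array, and 1.29 and 2.15 within 2w-WD and 14w-WD. Sh3bgr, a gene of heart and skeletal muscle, differed by 2.59 (SE 0.67). Poln, a DNA polymerase, had 5.99 to 7.14 against 4.63 to 6.17, with a mean on the low arrays below the tested level, and Tbrg4, a mitochondrial RNA-binding protein, 9.40 to 10.72 against 8.37 to 9.96.

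Tesc, which encodes the calcium-binding protein tescalcin, had the highest Pearson r to Myl3 of all tested genes, 0.910 over the 15 arrays. Its order was not first by every measure: its Spearman rho of 0.825 was below the 0.871 of Sirt5 and the 0.836 of Ndufb2, and without the 2 arrays farthest from the Myl3 median its r was 0.882 and that of Sirt5 0.883. It lay at 8.94 to 11.82 on the 6 arrays CHOW 1, 2 and 5, 2w-WD 1 and 2 and 14w-WD 2, and at 6.16 to 7.32 on the other 9. The next by r were Sirt5, a mitochondrial deacylase, at 0.892, E2f6, a transcriptional repressor, at 0.878, Myh7 at 0.874 and Ptgds, the lipocalin-type prostaglandin D synthase, at 0.853. Marco, a macrophage scavenger receptor, followed at 0.845, and Uqcr11, Ndufb2, Fhl2 and Tacc2 completed the 10 nearest at 0.835 to 0.806. Ptgds had 8.60 to 13.28 on high and 7.64 to 9.37 on low arrays, with its peak on 2w-WD replicate 2. Marco was dim throughout, at 5.90 to 6.82 against 5.75 to 6.12, a difference of 0.38 (SE 0.18). These correlations describe arrays that share a tissue source and carry no test.

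Macrophage genes lay at much the same level in both classes. Of 30 macrophage identity genes 28 were tested; Itgam, the integrin CD11b, and Spi1, the lineage factor PU.1, were below the tested level. The median difference of the 28 was 0.08, close to the 0.06 of all genes, with 19 above and 9 below 0. An unadjusted p under 0.05 was found for 0 of them in either direction, beside 3.47% of all genes higher and 1.09% lower. The mean level of the list was 10.65 to 11.50 on the high arrays and 10.42 to 11.56 on the low arrays. No member differed by more than 1 log2 unit, and for 21 of the 28 the 95% interval of the difference lay wholly within 1 unit of 0. The 7 with wider intervals were Cd14, Aif1, Cx3cr1, Fcgr3, C1qa, C1qc and Sirpa, for which a difference of that size is not shut out by these data. Several members with narrow intervals were among the brightest genes, such as Csf1r at 13.80 to 14.49 and C1qb at 13.92 to 14.36. The dimmer C1qa and C1qc spread over 7.34 to 10.89 and 6.67 to 9.38. Whether the top of the scale narrows the differences of bright genes was not tested, so narrow intervals there do not show equal macrophage content.

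Csf1r, the receptor of the growth factor that maintains macrophages, had 13.80 to 14.49 on high and 13.86 to 14.17 on low arrays. Its difference was 0.01 with an interval from -0.20 to 0.21. Adgre1, an adhesion receptor used as a marker of mouse macrophages, lay between 12.51 and 13.08 on all 15 arrays, with a difference of -0.07 (interval -0.33 to 0.18). Lyz2, the macrophage lysozyme, differed by 0.09 (interval -0.11 to 0.29) and C1qb, a chain of complement C1q, by 0.12 (interval -0.05 to 0.30). Cd68, the endosomal glycoprotein used to stain lesion macrophages, spread more widely, at 10.31 to 12.51 against 10.35 to 11.71, and its difference of 0.30 had an interval from -0.35 to 0.96. The lowest value of the list was that of Cx3cr1, the fractalkine receptor, at -0.52 (interval -1.11 to 0.08). Each of these genes had a limma adjusted p of 0.999.

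**Figure D4:**
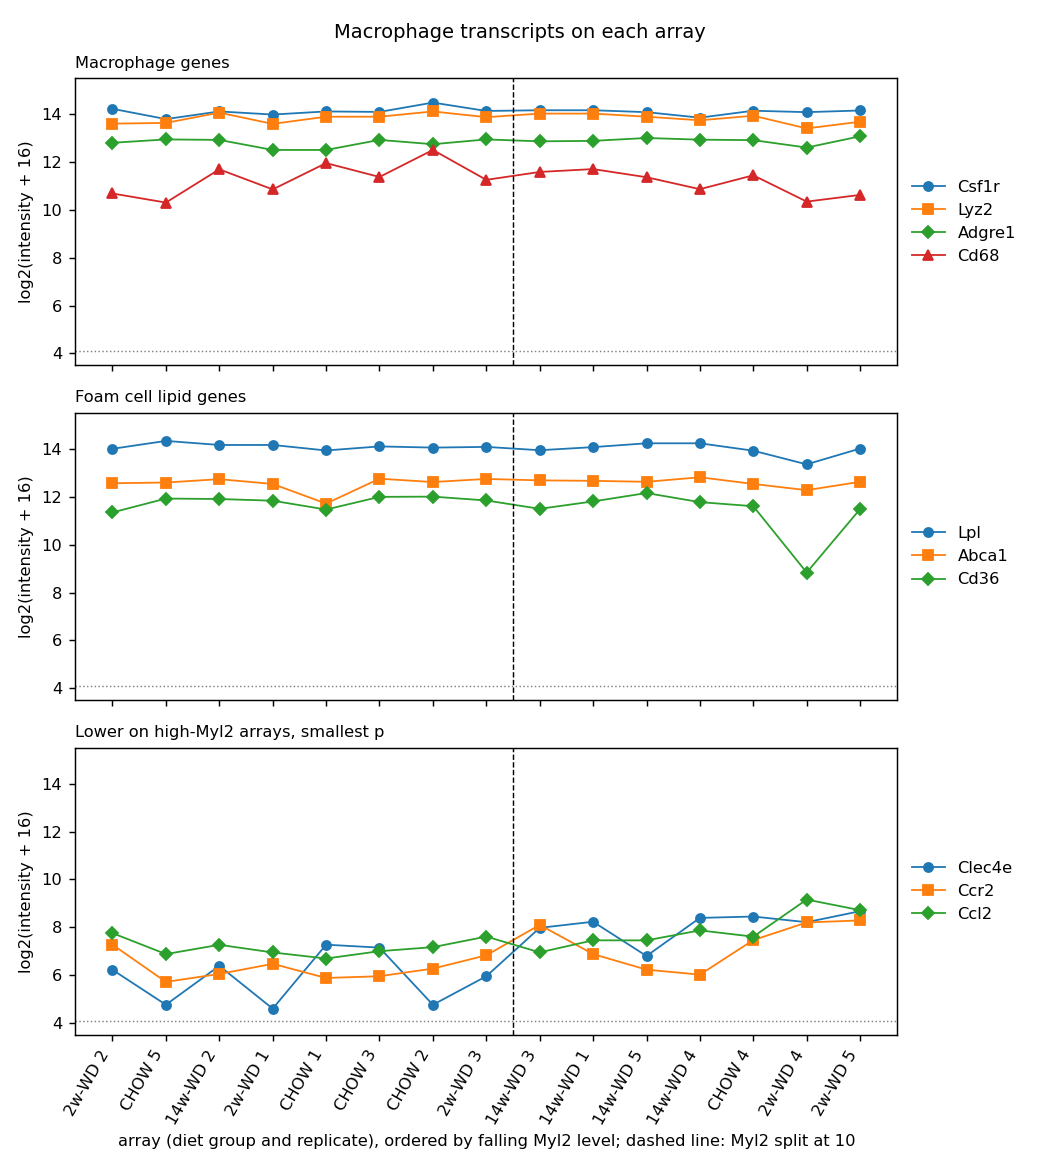
Levels of macrophage genes, foam cell lipid genes and 3 immune genes with small p in the lower direction on each of the 15 arrays, as log2(intensity + 16), in order of falling Myl2 with the split at 10 as a dashed line. Joining lines only guide the eye and the dotted line marks an intensity of 1; Adgre1 stays between 12.51 and 13.08 across the split, Cd36 is low on 2w-WD replicate 4 at 8.84, and Clec4e runs from 4.60 to 7.27 on high and from 6.80 to 8.67 on low arrays.

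Lipid handling genes of foam cells had a median of 0.10, with 15 of 18 above 0 and 15 of 18 intervals within 1 unit of 0. Abca1, the exporter of cholesterol to apolipoprotein A-I, differed by 0.05 (interval -0.30 to 0.39) and Plin2, the lipid droplet coat of foam cells, by -0.08 (interval -0.31 to 0.16). Lpl, lipoprotein lipase, had the only unadjusted p under 0.05 in the list, with a difference of 0.24 (interval 0.00 to 0.47). That is 5.56% of the list, beside 3.47% of all genes tested in the higher direction. Cd36, a scavenger receptor that heart muscle also uses to take up fatty acids, differed by 0.75 (interval -0.03 to 1.53), and 2w-WD replicate 4, at 8.84 against 11.35 to 12.16 on every other array, set that value. Without this array the Cd36 difference was 0.18.

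Lysosomal genes had a median of 0.23 with 20 of 22 above 0, and 14 of the 22 intervals lay within 1 unit of 0. Man2b1, a lysosomal mannosidase, was the only member with an unadjusted p under 0.05, at 0.66 (interval 0.04 to 1.29). That is 4.55% of the list, near the 3.47% of all genes tested in the higher direction. Hexa, Ctsb and Lamp1, a hexosaminidase chain, cathepsin B and a membrane protein of the lysosome, differed by 0.08, 0.08 and 0.10. Without 2w-WD replicate 4 the lysosomal median was 0.03 and the macrophage median -0.03, beside -0.02 for all genes. MHC class II genes had a median of -0.06 with 0 of 5 above 0, from -0.11 for Cd74, the invariant chain, to -0.00 for H2-Ab1.

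Markers of the other cells of the sinus had list medians nearer 0 than the 1.40 of contractile genes. The medians of the tested members were 0.06 for 7 smooth muscle genes, 0.39 for 6 endothelial genes, -0.19 for 10 fibroblast genes, -0.21 for 5 cartilage-like genes and -0.11 for 4 adipocyte genes, and over all measured members they were 0.10, 0.28, -0.19, -0.08 and 0.06. Acta2, the smooth muscle actin, lay at 13.12 to 13.80 on high and 12.33 to 13.61 on low arrays, a difference of -0.00 (SE 0.18). The exception in the smooth muscle list was Synpo2, myopodin, which heart and skeletal muscle also make, with a difference of 2.02 (SE 0.56). Collagen genes pointed the other way by small amounts, with -0.44 for Col1a1, -0.18 for Col1a2 and -0.21 for Col3a1, and 9 of 10 fibroblast genes lay below 0. The exception, Fbln1, the matrix protein fibulin 1, had the only unadjusted p under 0.05 in the list, at 0.68 (interval 0.04 to 1.32). That is 10% of the list, beside 3.47% of all genes tested in the higher direction. Cytl1 of the cartilage-like list stood at 1.29 (interval 0.30 to 2.28), but reached the tested level on the high arrays only. Blood cell lists were short: the medians were 0.08 for 5 T and NK cell genes, 0.17 for 4 B cell genes, 0.02 for 3 dendritic cell genes and -0.41 for 4 neutrophil genes, and over all measured members 0.03, -0.15, -0.05 and -0.34. No marker in these lists passed after adjustment. Like Cytl1, the endothelial Cldn5 and the dendritic Zbtb46 and Siglech reached the tested level on the high arrays only. The medians over all measured members do not depend on that filter.

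In the lower direction the smallest unadjusted p-values included those of immune receptor genes. Clec4e, which encodes the C-type lectin Mincle of activated macrophages, had 4.60 to 7.27 on high arrays (median 6.09) and 6.80 to 8.67 on low arrays (median 8.23). Only 2 of the 8 high arrays, CHOW replicates 1 and 3, lay above the lowest low array. The difference was -2.34 (SE 0.50, limma adjusted p = 0.825), with -2.46 within CHOW, -2.85 within 2w-WD and -1.46 within 14w-WD. Ccr2, the receptor that draws monocytes out of the blood, had 5.72 to 7.27 against 6.02 to 8.29, and its difference of -1.24 (SE 0.31) was negative in each diet, at -1.51, -1.39 and -0.76. Ccl2, the ligand of that receptor, had 6.69 to 7.76 against 6.95 to 9.16, with the highest levels on 2w-WD replicates 4 and 5, and differed by -0.88.

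The other named genes of this set were Zc3h13, of the complex that methylates adenosine in RNA, at -0.94, Ms4a4c at -1.11, Slc9a5, a sodium-proton exchanger, at -0.90, Rogdi at -0.85, Trpm1, a cation channel, at -0.75 and Acsl4, which activates arachidonic acid, at -0.73. A further gene has only a clone name. All had a limma adjusted p of 0.825 and none passed. Rogdi and Trpm1 reached the tested level on the low arrays only, so their negative values are no support. Their means were 5.517 and 5.609 on high arrays and 5.925 and 5.968 on low arrays. Of 12 tested inflammatory mediators 4 lay above 0, the median was -0.17, and 1, Ccl2, had an unadjusted p under 0.05. That is 8.33% of the list, beside 1.09% of all genes tested in the lower direction. Cxcl2, a neutrophil chemokine, had the lowest value at -1.47 (SE 0.92), with 6.65 to 11.57 on high and 7.05 to 11.49 on low arrays. Nfkbia, the inhibitor of NF-kB, was level at 0.01 (SE 0.16).

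**Figure D5:**
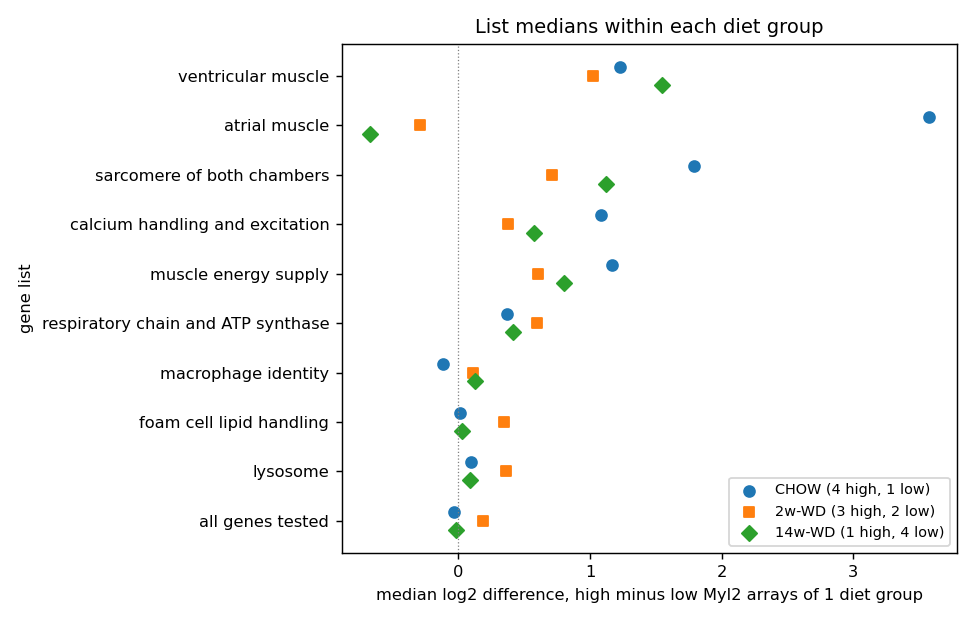
Median log2 difference between high and low Myl2 arrays within each diet group, for 9 gene lists and all genes tested; CHOW has 4 high and 1 low array, 2w-WD 3 and 2, and 14w-WD 1 and 4, so no error is drawn, and the ventricular list includes Myl3. The contractile list of both chambers lies at 1.79, 0.71 and 1.12, the atrial list at 3.58, -0.29 and -0.67, and the macrophage list at -0.12, 0.11 and 0.13.

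The split also bears on comparisons between diets, since most CHOW arrays were high and most 14w-WD arrays low. With the split in the fit 1029 genes, 8.63% of those tested, differed between 14w-WD and 2w-WD at a limma adjusted p under 0.05, 927 of them higher at 14 weeks. Without the split 1338 genes passed. The 910 genes found both ways had the same direction in both, which is 88.4% of the first set and 68.0% of the second. Both fits use the same arrays and the same contrast, so the shared direction is no independent evidence. No heart muscle gene of the contractile, ventricular or atrial lists was called either way, but the median of the contractile genes was 0.25 with the split and -0.45 without it. Of 22 lysosomal genes 11 were higher at 14 weeks with the split and 9 without it. Brightness was uneven between these diet groups. On 14w-WD arrays 22.5% to 27.2% of probe sets exceeded an intensity of 100. The share was 25.7% on 2w-WD replicate 1 and 18.2% to 20.4% on the other 2w-WD arrays. With quantile normalization and the split in the fit, 477 genes were higher and 195 lower at 14 weeks. How far brightness bears on these calls was not tested. Ccr2 differed by -1.25 (limma adjusted p = 0.0411) with the split, and by -0.76, without passing, when the split was left out. Ccr2 was named for its low level on high arrays in the same fit. Because high arrays are uneven over the diets, that difference itself moves this contrast, so the call is no separate evidence.

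The number of genes called between 14w-WD and 2w-WD rested on single arrays. It was 0 without 2w-WD replicate 4 and 3124 without 2w-WD replicate 1. It was 99, 525 and 543 without 2w-WD replicates 2, 3 and 5, and 34, 17, 52 and 202 without 14w-WD replicates 1, 2, 3 and 5. Between either western diet group and CHOW no gene passed after adjustment with the split in the fit, at 0 genes (0%) for each by limma. Of the 11924 genes tested, 1065 for 2w-WD and 1856 for 14w-WD had an unadjusted p under 0.05. A count of 0 calls therefore does not show that the groups are equal. Without the split these comparisons gave 0 and 1 genes, with 1164 and 1893 at an unadjusted p under 0.05.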

How the data were processed

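The authors deposited 1 table of linear intensities for 45037 probe sets on 15 Affymetrix arrays, 5 per diet group; their summarisation and normalization are not given in the sources used here. Per the labels' protocols, RNA of laser-captured lesion macrophages was amplified before biotin labelling. The design had foreseen linear or log2 values; intensities were taken as log2(intensity + 16). Platform annotation named 34945 probe sets with 1 gene, 932 with several and left 9160 unnamed. The brightest single-gene probe set stood for each gene, and genes with a mean of at least 5.66, the median of all probe sets, were tested, without Myl2. limma 3.58.1 in R 4.3.3 (lmFit, eBayes with trend) fitted diet group and Myl2 class over all 15 arrays, two-sided, with Benjamini-Hochberg adjustment and a threshold of 0.05. Arrays have no counting depth; their number limits the precision. On simulated data with 11924 genes the fit of high against low arrays recovered 46 of 100 genes changed by 1 log2 unit and 85 of 100 changed by 2, with 6 false calls. The simulation varied each gene independently and changed all these genes at once, which loosens the adjusted threshold. In the measured data 1 gene was called and muscle genes vary together, so recovery there may be lower. Named genes were those called or, up to 10 per direction, with the smallest p, all ventricular and atrial genes, a few members of each other list, a fixed set of muscle and macrophage genes and the 10 genes most correlated with Myl3. Mmp11, Olfr140, Nkx2-5, Plin2, Hexa, Ctsb, Lamp1, Slc8a1, Mybpc2, Myh4, Itgam, Spi1, Cmya5 and the macrophage genes listed with wide intervals that fall outside this rule were named after their values were seen. The members and lists were chosen with earlier results of these data known. Alternatives covered pseudocount, filter, scaling, probe set choice, array weights, replicate block, the form of the split and omission of each array.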

Additional observations from a re-analysis of the deposited data

Results flagged for a closer look

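Each of 130 sets of values, a gene or a list mean within a Myl2 class or a diet group, was checked for a single array standing far from the rest. Chance alone gives about 1 in 20 for a single set, and 33 sets held such an array. The sets share arrays and genes, so they are not independent and this count cannot be weighed against chance. All values are log2(intensity + 16).

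CHOW replicate 4 was the low extreme for many heart muscle genes. Among the low arrays its list means were 6.019 for ventricular, 7.449 for atrial and 7.505 for muscle energy genes. Its Myh6 level of 9.982 and its Mb level of 7.172 stood apart both from the low arrays and from the other CHOW arrays. Against the low arrays it also stood apart in Myl7 (8.11), Myl4 (6.658), Sln (6.656) and Pln (6.237).

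CHOW replicate 5 was the low extreme for atrial genes among the high arrays, with a list mean of 7.653 and with Myl7 at 7.732, Myl4 at 6.259, Sln at 5.548 and Nppa at 9.746. In 14w-WD, replicate 2, the only high array there, was the high extreme for Myl3 at 13.51, Myh7 at 9.741 and the ventricular list mean at 8.623. Nppa was low on 14w-WD replicate 1 at 11.02, and Myl4 was low on 2w-WD replicate 2 at 11.11.

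Other genes had isolated arrays as well. 2w-WD replicate 4 was low in Cd36 at 8.836 and in Lpl at 13.36, both within the low class and within 2w-WD. 14w-WD replicate 4 was low in Csf1r at 13.86 and in Acta2 at 12.33, both within the low class and within its diet group, and its foam cell lipid list mean of 11.36 stood apart within 14w-WD. CHOW replicate 1 was low in Abca1 at 11.72, within the high class and within CHOW, and 2w-WD replicate 5 was high in Acta2 at 13.38 within 2w-WD.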

How the results depend on the processing

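The count of 1 gene between high and low arrays was unchanged under pseudocounts of 1 and 64, no filter, quantile normalization, median centring, no intensity trend and no diet term. It was 0 with probe sets averaged, 0 with the Myh6 level as a further covariate, 63 (53 higher, 10 lower) with array weights, 2 with the Myl2 level and 18 with the Myl3 level in place of the split, and 0 to 3 on leaving out 1 array. The 1029 genes of 14w-WD against 2w-WD became 665 without the filter, 672 with quantile normalization (477 higher and 195 lower, against 927 and 102), 3825 with array weights and 0 to 3124 on leaving out 1 array. For 14w-WD against CHOW the count of 0 became 3 with a pseudocount of 64, 1 without the filter, 2 with probe sets averaged, 2447 with array weights, 1 with the Myl3 level and 1 without the split, and 0 to 6 on leaving out 1 array. For 2w-WD against CHOW it was 0 to 2 on leaving out 1 array. Replicate numbers were not taken to pair the samples: 7 of 15 same-numbered pairs correlated over 0.1 (median 0.084), against 14 of 60 others (median -0.022), so a partial sharing was not settled; with the replicate block the counts were 0 for the split and 494 for 14w-WD against 2w-WD. Of 646 alternative values of list medians 631 moved by less than 1 SD, and of 4158 for named genes 4061 did, but 12 of 23 list medians changed sign under some setting, the atrial and macrophage lists among them. The ventricular median of 1.57 includes Myl3; it was 0.95 without Myl3 and 0.41 also without the filter, settings chosen after seeing the data. The causes were not tested. Signal limits dim genes, since the 991 to 1238 probe sets per array listed at an intensity of 1 have no order among them. A limit at the bright end of the scale was not tested.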
